A study of Mus musculus with 3 samples.

Results

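The 32 genes described here encode chaperones and folding enzymes of the endoplasmic reticulum (ER), the machinery that returns misfolded proteins from the ER for degradation (ERAD), and the sensors, transcription factors and targets of the unfolded protein response (UPR). They were listed by symbol, with earlier results of these data known, so the choice was not independent of the data. All 32 were found among the 30651 gene symbols that both deposited tables share. Following what is known of their control, they were kept as 3 sets: 21 chaperone and ERAD genes, many but not all of which ATF6 and XBP1 are known to drive, 4 genes for sensors and transducers (Xbp1, Atf6, Ern1 and Eif2ak3), and 7 genes of the ATF4-CHOP branch (Atf4, Ddit3, Atf3, Trib3, Asns, Chac1 and Ppp1r15a).

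The cells were hepatic stellate cells (HSCs), mesenchymal cells of the liver that store vitamin A and produce collagen in fibrosis. They were purified by density gradient from livers of wild-type female C57BL/6 mice aged over 24 weeks. After 24 h of starvation in 0.2% fetal bovine serum, which every group shared, HSCs were left untreated, were given recombinant human FGF18 at 100 ng/mL, or were given TGFβ1 at 1 ng/mL, in both cases for 24 h. The labels describe most but not all of the purified cells as positive for vitamin A autofluorescence, so each value is that of a mixed culture. The labels hold 1 record per condition, while the methods speak of triplicates without saying whether these came from separate isolations.

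For each condition the tables hold 1 value per gene that is used here, the authors' mean level in TPM, a unit scaled for transcript length and to the same total in every column. No value per library is in the tables, so the depth that each library reached is unknown and no SD or n is attached to a level. The tables also hold a standard error and p-values of the authors' own comparison, which were not used, so no difference below has a replicate check or a test. Differences are given as a plain fold, the ratio of 2 mean levels, and as a log2 ratio after 1 TPM was added to each level, which understates the difference of genes at low levels. The term called is used of genes whose log2 ratio reached that of a 1.5-fold difference in either direction. Of the shared symbols, 9457 had a mean over the 3 conditions of at least 10 TPM and form the background, and 31 of the 32 genes were among them.

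The culture was checked against marker lists. Of 15 stellate cell markers, 13 reached the minimum level. In untreated HSCs decorin (Dcn) was at 7021 TPM, lecithin retinol acyltransferase (Lrat) at 151 TPM and desmin (Des) at 148 TPM. With FGF18, 6 of the 13 were called lower and 0 higher, where 7.41% of all genes were called lower and 4.49% higher. With TGFβ1, 7 were called lower and 1 higher, where 5.48% of all genes were called lower and 6.12% higher. Dcn made up most of the summed level of the 15 markers in untreated HSCs. That sum was 8241 TPM in untreated, 3527 TPM in FGF18-treated and 5154 TPM in TGFβ1-treated HSCs. The 14 liver endothelial markers summed to 594, 466 and 232 TPM in the same order, the 13 macrophage and Kupffer cell markers to 127, 147 and 162 TPM, the 11 hepatocyte markers to 22.1, 21.5 and 23.8 TPM, and the 8 lymphocyte markers to 23.8, 21.5 and 24.6 TPM. Of these markers, Trbc2 was listed at 0 after FGF18 and after TGFβ1, and albumin (Alb), the most abundant product of hepatocytes, was at 6.03, 6.31 and 6.57 TPM. The 6 cholangiocyte markers summed to 63.6, 398 and 298 TPM, of which osteopontin (Spp1), a gene that is not particular to cholangiocytes, made up 52.1, 388 and 285 TPM. In a bulk culture, fewer cells of a type and less RNA per cell cannot be told apart. Stellate, endothelial and Spp1 levels moved with the conditions compared below, and their part in the differences of the ER genes was not tested.

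The ER folds and modifies the proteins that a cell secretes, and in HSCs collagens are a prominent part of that cargo. When unfolded proteins build up in the ER, IRE1 (Ern1) splices Xbp1 mRNA, ATF6 is cleaved into an active transcription factor, and PERK (Eif2ak3) phosphorylates the translation factor eIF2α. XBP1 and ATF6 drive chaperone and ERAD genes, while phosphorylated eIF2α favours translation of ATF4, which drives amino acid genes and CHOP (Ddit3). ATF4 is also reached from other kinases, among them one that senses amino acid shortage, so that the ATF4-CHOP branch can move apart from the chaperones.

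The motif that ATF6 is known to bind together with NF-Y, the ER stress response element (ERSE), could be read in the promoters. RefSeq promoters of the GRCm38.p6 assembly were given for 29 of the 32 genes, with none used for Manf, Hyou1 and Atf6, and the 250 bases before the start were searched on both strands. The ERSE, searched as CCAAT and CCACG with 9 bases of any kind between them, was found in 8 of 19 chaperone and ERAD genes (42.1%), against 0.113% of all 32851 promoters. The shorter ERSE-II, ATTGG and CCACG with 1 base of any kind between them, was found in Herpud1 and in 0.0304% of all promoters, and the UPR element TGACGTGG in none of the members and in 0.563% of all promoters. These 3 motifs overlap in their letters, since each holds CCACG on one of its strands. The C/EBP-ATF response element (CARE), TGATGNAA, to which ATF4 binds as a dimer with C/EBP proteins, was found in 3 of the 7 ATF4-CHOP genes, in 1 of the 19 chaperone and ERAD genes, Herpud1, and in 3.45% of all promoters. A match is a description of the letters and not of a bound site. The stretches that carry the matches are printed below from 5′ to 3′ on the strand of the gene, to show which letters the chaperone genes and the ATF4-CHOP genes carry. Capitals mark the ERSE, or its reverse complement in Calr, Creld2 and the second match of Hsp90b1.
Hspa5, chr2:34772000-34772068, plus strand: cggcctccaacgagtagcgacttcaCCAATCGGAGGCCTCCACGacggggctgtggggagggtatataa
Hsp90b1, chr10:86705508-86705681, minus strand: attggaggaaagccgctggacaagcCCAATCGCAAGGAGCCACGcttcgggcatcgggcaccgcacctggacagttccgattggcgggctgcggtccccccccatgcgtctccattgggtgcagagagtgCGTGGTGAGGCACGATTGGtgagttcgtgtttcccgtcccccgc
Calr, chr8:84847050-84847118, minus strand: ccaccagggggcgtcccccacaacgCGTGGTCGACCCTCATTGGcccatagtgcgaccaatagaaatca
Canx, chr11:50325775-50325843, minus strand: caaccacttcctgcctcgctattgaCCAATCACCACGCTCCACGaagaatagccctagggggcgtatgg
Pdia6, chr12:17266466-17266534, plus strand: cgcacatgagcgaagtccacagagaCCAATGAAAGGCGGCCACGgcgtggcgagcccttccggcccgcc
Creld2, chr15:88819495-88819563, plus strand: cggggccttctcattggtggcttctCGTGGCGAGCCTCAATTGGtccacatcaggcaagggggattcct
Dnajc3, chr14:118937802-118937870, plus strand: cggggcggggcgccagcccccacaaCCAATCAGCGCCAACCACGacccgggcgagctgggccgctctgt
Syvn1, chr19:6046507-6046575, plus strand: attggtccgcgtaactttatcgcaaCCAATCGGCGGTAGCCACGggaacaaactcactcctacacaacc

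In the remaining promoters with a match, capitals mark the CARE, reversed in Atf3, Chac1 and Herpud1, and in Herpud1 both the CARE and, nearer to the start, the ERSE-II.
Asns, chr6:7693210-7693257, minus strand: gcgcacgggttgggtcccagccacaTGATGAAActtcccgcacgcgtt
Atf3, chr1:191183411-191183468, minus strand: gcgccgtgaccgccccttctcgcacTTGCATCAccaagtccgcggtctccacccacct
Chac1, chr2:119351024-119351081, plus strand: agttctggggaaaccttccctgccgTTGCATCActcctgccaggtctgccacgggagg
Herpud1, chr8:94386292-94386412, plus strand: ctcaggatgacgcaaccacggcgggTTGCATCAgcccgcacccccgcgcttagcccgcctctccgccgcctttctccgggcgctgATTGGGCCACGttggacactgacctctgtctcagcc

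**Figure D1:**
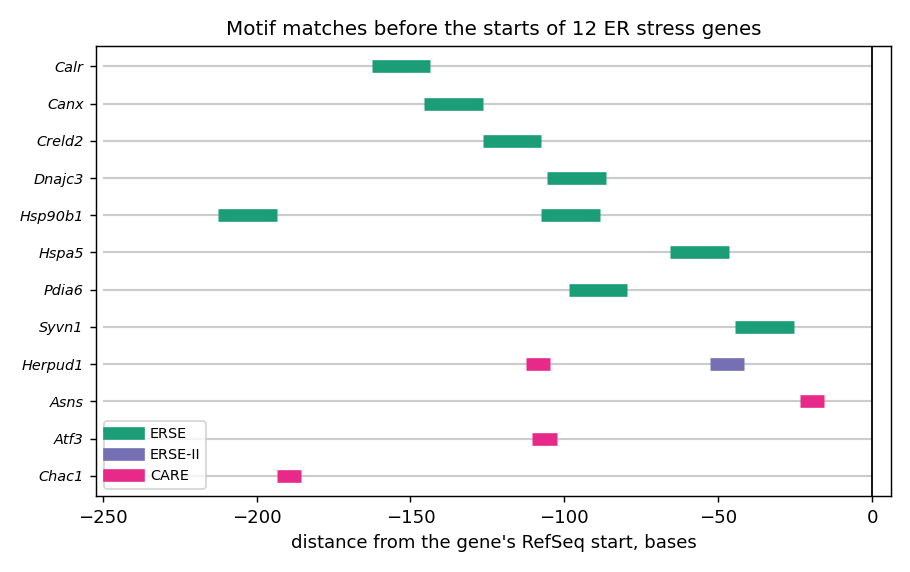
Positions of motif matches in the 12 promoters that hold one, in bases from the RefSeq start (0) of each gene. Marks show the ERSE, ERSE-II and CARE on either strand. The ERSE of Hspa5 spans -65 to -47 and that of Syvn1 -44 to -26, while the CARE of Asns spans -23 to -16 and that of Chac1 -193 to -186.

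The chaperones as a set were at a higher level in both stimulated cultures than in untreated HSCs. The 21 chaperone and ERAD genes summed to 5648 TPM (0.565% of all TPM) in untreated HSCs, 7058 TPM (0.706%) after FGF18 and 6974 TPM (0.698%) after TGFβ1. With FGF18, 19 of the 21 had a log2 ratio above 0, beside 45.9% of all genes tested and 57.8% of the 1759 genes whose mean was 100 TPM or more. Their median log2 ratio was 0.28, beside -0.03 over all genes and 0.04 over the genes of at least 100 TPM. With TGFβ1, 19 of the 21 again lay above 0, beside 51.5% of all genes and 54.3% of those of at least 100 TPM, and their median was 0.27 beside 0.01 and 0.03. The differences were small gene by gene and lay mostly in one direction.

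Few of the genes passed the 1.5-fold call. With FGF18, 2 of the 31 were called (Creld2 and Asns, both higher), where 4.49% of all genes were called higher, 7.41% lower and 11.9% in either direction. With TGFβ1, 2 were called (Creld2 and Serpinh1, both higher), where 6.12% of all genes were called higher, 5.48% lower and 11.6% in either direction. These counts lie near or under the background and are no result about the genes. At a smaller difference, a log2 ratio of at least 0.32 in size, FGF18 gave 7 chaperone and ERAD genes higher and 0 lower, where 13.0% of all genes were higher, 20.9% lower and 33.9% either. TGFβ1 gave 8 higher and 0 lower at that call, where 15.7% of all genes were higher, 14.3% lower and 30.0% either. With FGF18, 17 of the 21 lay above the upper quartile of all genes and 6 above the 90th percentile, and with TGFβ1 these numbers were 12 and 4. None of the 21 lay under the 10th percentile with either stimulus.

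**Figure D2:**
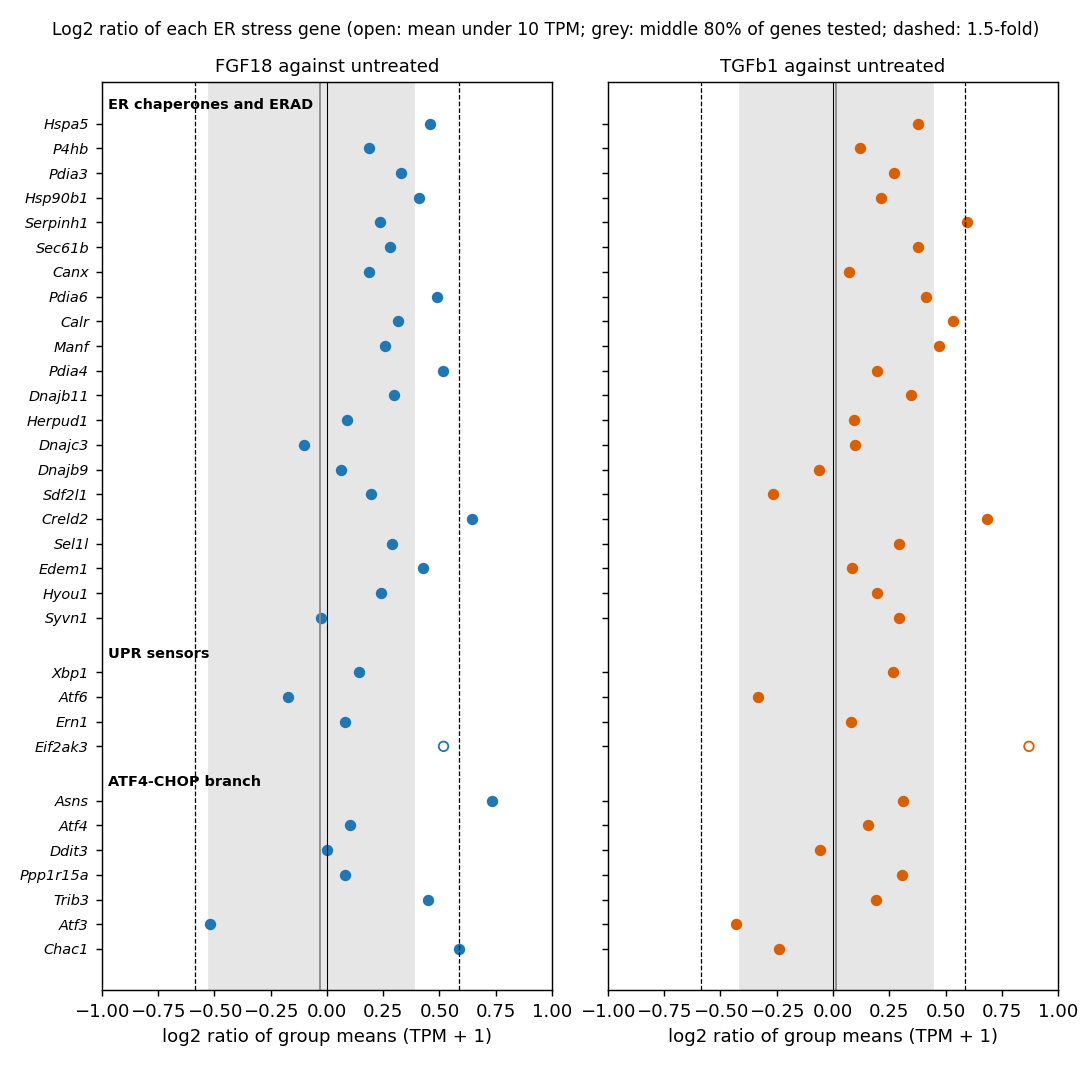
Log2 ratio of the authors' mean levels (1 TPM added) for each of the 32 genes, with FGF18 and with TGFβ1 against untreated HSCs, grouped by set, with the open point at a mean under 10 TPM, dashed lines at 1.5-fold and the middle 80% of all genes tested in grey. Most chaperone and ERAD genes lie to the right of 0 with both stimuli, Asns and Chac1 lie further right with FGF18 than with TGFβ1, and Atf3 lies to the left with both.

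The Hsp70 and Hsp90 chaperones of the ER lumen were among the most abundant. Hspa5 (BiP, the Hsp70 of the ER lumen that holds the UPR sensors inactive, chr2:34771970-34777547) was at 929 TPM in untreated HSCs, 1274.5 TPM after FGF18 and 1207 TPM after TGFβ1. It was the highest of the 32 genes and took 16.4%, 18.1% and 17.3% of the summed chaperone level. With FGF18 its level was 1.37-fold that of untreated HSCs (log2 ratio 0.46, percentile 92.5 of all genes), and with TGFβ1 1.30-fold (log2 ratio 0.38, percentile 87.5). Hsp90b1 (GRP94, the Hsp90 of the ER, chr10:86690209-86705509) was at 568, 755 and 658 TPM in the same order, which is 1.33-fold with FGF18 (log2 ratio 0.41) and 1.16-fold with TGFβ1 (log2 ratio 0.21). Both genes were thus highest after FGF18, and the gap between the stimuli was wider for Hsp90b1. The exons of Hsp90b1 share 415 bases (10.3%) with a pseudogene on the other strand that was listed at 8.36 TPM or less. Hyou1 (GRP170, which exchanges the nucleotide of BiP) was far lower, at 19.5, 23.2 and 22.4 TPM.

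The J-proteins and cofactors that work with BiP were less uniform. Dnajb11 (ERdj3) was at 109, 134 and 139 TPM and stood at 1.23-fold with FGF18 and 1.27-fold with TGFβ1. Dnajb9 (ERdj4) at 82.2, 85.9 and 78.7 TPM and Dnajc3 (p58IPK) at 85.3, 79.4 and 91.4 TPM stayed within a log2 ratio of -0.10 to 0.10 of untreated. Sdf2l1, a partner of ERdj3, was at 82.7, 95.1 and 68.6 TPM, so that it was above untreated after FGF18 (log2 ratio 0.20) and under it after TGFβ1 (log2 ratio -0.27). It was the chaperone gene with the lowest log2 ratio with TGFβ1. Manf, a small secreted ER protein that binds BiP, was at 240, 287 and 333 TPM, 1.39-fold higher with TGFβ1 (log2 ratio 0.47).

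Creld2 was the chaperone gene that passed the 1.5-fold call with both stimuli. Creld2 (an ER protein with EGF-like domains and disulfide isomerase activity, chr15:88819646-88826683) was at 57.0 TPM in untreated HSCs, 89.9 TPM after FGF18 and 92.3 TPM after TGFβ1. With FGF18 it stood 1.58-fold higher (log2 ratio 0.65, percentile 96.3) and with TGFβ1 1.62-fold higher (log2 ratio 0.68, percentile 95.8). Its level in the 2 stimulated cultures differed by a log2 ratio of -0.04.

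The lectin chaperones calreticulin and calnexin hold glycoproteins during folding, and they did not move alike. Calr was at 234, 292 and 339 TPM, a log2 ratio of 0.32 with FGF18 and of 0.53 with TGFβ1. Canx, the membrane-bound member of the pair, was at 399, 455 and 420 TPM, with log2 ratios of 0.19 and 0.07. Calr was thus highest after TGFβ1 and Canx after FGF18. A processed pseudogene of Calr was listed at no more than 1.07 TPM in any condition.

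The disulfide isomerases form and rearrange disulfide bonds, and the 4 members of this class were all higher in both stimulated cultures, with FGF18 above TGFβ1. P4hb (protein disulfide isomerase, which is also the β subunit of collagen prolyl 4-hydroxylase, chr11:120560298-120573253) was the second highest of the 32 genes at 713, 811 and 775 TPM, with log2 ratios of 0.19 with FGF18 and 0.12 with TGFβ1. Pdia3 (ERp57, which works with Calr and Canx, chr2:121413775-121438687) was at 582, 732 and 701 TPM, with log2 ratios of 0.33 and 0.27. Pdia4 was at 141, 202 and 162 TPM, with log2 ratios of 0.51 and 0.19, and Pdia6 at 332, 466 and 442 TPM, with log2 ratios of 0.49 and 0.41. The order by size was therefore unlike the order by level, with P4hb the highest in TPM and the smallest in ratio.

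Serpinh1, the chaperone dedicated to collagen (HSP47), followed TGFβ1 more than FGF18. Serpinh1 (chr7:99345376-99353239) was at 446 TPM in untreated HSCs, 525 TPM after FGF18 and 674 TPM after TGFβ1. The difference from untreated was 1.18-fold with FGF18 (log2 ratio 0.24, percentile 80.8) and 1.51-fold with TGFβ1 (log2 ratio 0.60, percentile 94.2), just past the 1.5-fold call. Its log2 ratio of FGF18 against TGFβ1, -0.36, was the lowest of the 21 chaperone and ERAD genes. The TGFβ1 call is lost once the log2 ratios are centred on the median over the genes of at least 100 TPM, where it is 0.57.

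The cargo of Serpinh1 moved far more than Serpinh1 itself. Col1a1 was at 52.4 TPM in untreated HSCs, 27.7 TPM after FGF18 and 380 TPM after TGFβ1, Col1a2 at 68.7, 56.6 and 276 TPM, and Col3a1 at 893, 248 and 3322 TPM. The 3 chains of collagen I and III summed to 1014, 333 and 3978 TPM, which is 2.28, 0.634 and 5.90 times the Serpinh1 level. The 21 chaperone and ERAD genes summed to 5.57 times the collagen chains in untreated HSCs, 21.2 times after FGF18 and 1.75 times after TGFβ1. The summed chaperone level was therefore nearly the same after FGF18, where the collagen chains were at their lowest, and after TGFβ1, where they were at their highest.

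**Figure D3:**
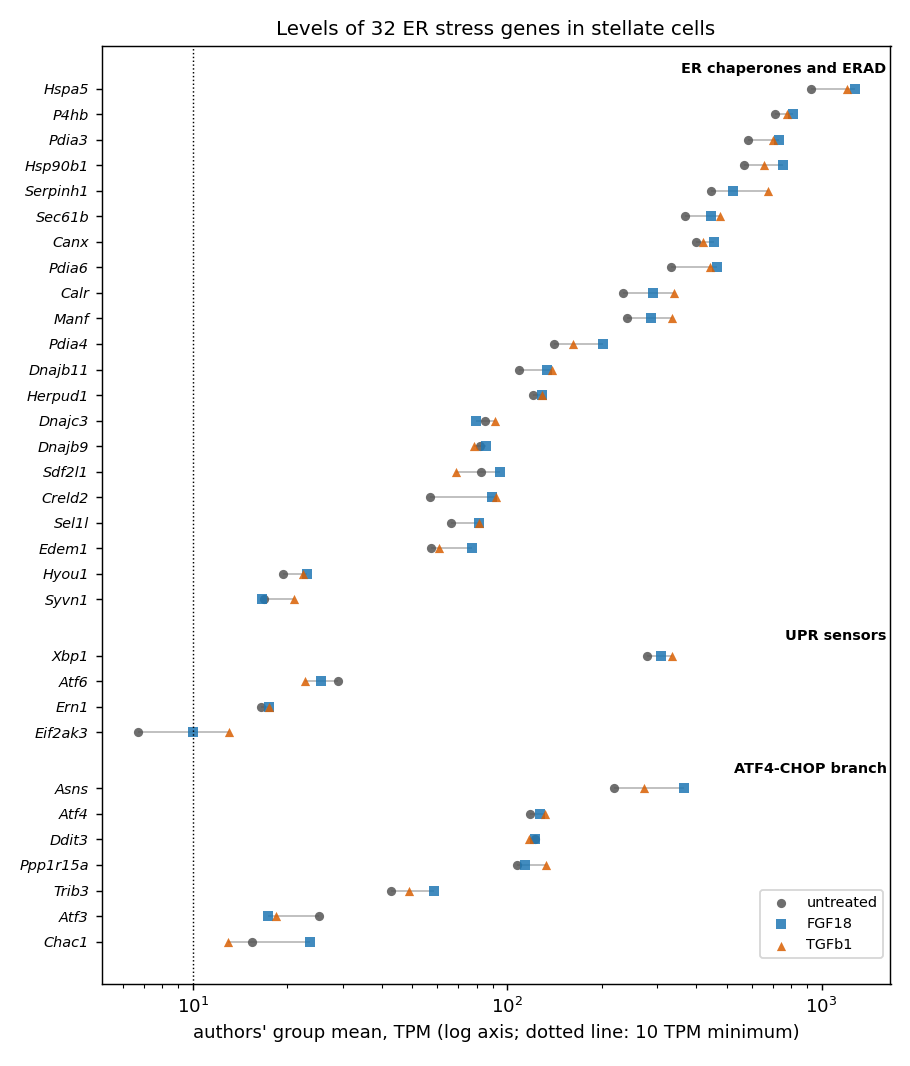
Mean level in TPM (log axis) of each of the 32 genes in untreated, FGF18-treated and TGFβ1-treated HSCs, as given by the authors, with no error since no value per library is used. Hspa5 is the highest, between 929 and 1274.5 TPM, and Eif2ak3 the lowest, between 6.69 and 13.1 TPM.

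The ERAD and translocon genes differed among themselves in which stimulus went with the higher level. Sec61b (a subunit of the channel through which new proteins enter the ER, chr4:47474658-47483242) was at 367, 446 and 477 TPM, with log2 ratios of 0.28 with FGF18 and 0.38 with TGFβ1. Edem1, which marks misfolded glycoproteins for removal, was at 57.3, 77.2 and 60.8 TPM, higher with FGF18 (log2 ratio 0.43) than with TGFβ1 (0.09). The ubiquitin ligase Syvn1 (HRD1) had the other order, at 16.9, 16.6 and 20.97 TPM, with log2 ratios of -0.02 and 0.29. Its partner Sel1l, at 66.3, 81.2 and 81.4 TPM, had a log2 ratio of 0.29 with both stimuli. Herpud1, which assembles this complex and is the gene with an ERSE-II, was at 121, 129 and 129 TPM and had a log2 ratio of 0.09 with both.

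Genes with and without the ERSE letters overlapped in their differences. The 8 chaperone and ERAD genes with an ERSE had a median log2 ratio of 0.36 with FGF18 and 0.34 with TGFβ1, and Herpud1, with the ERSE-II, 0.09 with both. The 10 genes without either motif had medians of 0.29 and 0.23. Of the 6 chaperone and ERAD genes above the 90th percentile of all genes with FGF18, Hspa5, Hsp90b1, Pdia6 and Creld2 carry an ERSE, and Pdia4 and Edem1 have no match. At the other end, Dnajc3, which carries one, was at a log2 ratio of -0.10 with FGF18.

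The sensors and transducers showed no common direction. Xbp1 (the transcription factor whose mRNA IRE1 splices, chr11:5520659-5525893) was at 279, 308 and 336 TPM, with log2 ratios of 0.14 with FGF18 and 0.27 with TGFβ1. Gene levels in TPM do not separate spliced from unspliced Xbp1, so its activation cannot be read from them. Atf6 was at 29.0, 25.6 and 22.8 TPM, under untreated with both stimuli (log2 ratios -0.17 and -0.33). Ern1, which encodes IRE1α, was at 16.5, 17.5 and 17.5 TPM, with a log2 ratio of 0.08 with both. Eif2ak3 (PERK, chr6:70844515-70905245) was at 6.69, 10.0 and 13.1 TPM, a plain fold of 1.50 with FGF18 and 1.95 with TGFβ1. Its mean of 9.91 TPM put it under the minimum level, so it is in none of the counts, and its exons share 485 bases (8.05%) with a gene model on the other strand.

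The transcription factors of the ATF4-CHOP branch were near their untreated levels or under them. Atf4, the factor that eIF2α phosphorylation brings up by translation and not only by mRNA (chr15:80255184-80257541), was at 118, 127 and 132 TPM, with log2 ratios of 0.10 with FGF18 and 0.16 with TGFβ1. Ddit3 (CHOP, the pro-apoptotic factor of the branch, chr10:127290774-127296288) was at 122, 123 and 118 TPM, with log2 ratios of 0.00 and -0.06, and shares 68 exonic bases (3.97%) with Mars on the other strand, a gene at 138, 153 and 131 TPM. Counting by strand is not given in the sources used here, so reads in such shared bases cannot be assigned. Atf3, a stress-induced factor of the ATF family, was at 25.3, 17.4 and 18.5 TPM, 1.46-fold lower with FGF18 (log2 ratio -0.52) and 1.37-fold lower with TGFβ1 (log2 ratio -0.43). With TGFβ1, Atf3 was the 1 gene of the 31 under the 10th percentile of all genes.

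Among the targets of ATF4, Asns and Chac1 were higher after FGF18 than after TGFβ1. Asns (asparagine synthetase, chr6:7675169-7693254) was at 220 TPM in untreated HSCs, 366 TPM after FGF18 and 272 TPM after TGFβ1. It had the largest log2 ratio with FGF18 among the 31 genes, 0.73 (1.67-fold, percentile 97.3), and one of 0.31 with TGFβ1 (1.24-fold, percentile 83.5). Chac1 (a glutathione-degrading enzyme, chr2:119351229-119354381) was at 15.4, 23.7 and 12.9 TPM. It was 1.53-fold higher with FGF18 in TPM, which with 1 TPM added is a log2 ratio of 0.58 and just under the call, and it was lower than untreated with TGFβ1 (log2 ratio -0.24). Trib3, a pseudokinase that restrains ATF4 and CHOP, was at 42.7, 58.6 and 48.9 TPM, with log2 ratios of 0.45 and 0.19. Ppp1r15a (GADD34, which directs the dephosphorylation of eIF2α) had the other order, at 108, 114 and 133 TPM, with log2 ratios of 0.08 and 0.31. The 7 genes together summed to 651 TPM, 829 TPM and 736 TPM, a difference made up largely by Asns, and their median log2 ratio was 0.10 with FGF18 and 0.16 with TGFβ1, beside -0.03 and 0.01 over all genes.

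Set against each other, the stimuli gave like levels for most of the chaperones. This comparison takes the FGF18 level from one table and the TGFβ1 level from the other. The untreated level differed between the tables for 8 of the 30651 symbols and for 0 of the 32 genes. Over the 21 chaperone and ERAD genes the median log2 ratio of FGF18 against TGFβ1 was 0.05, with 11 genes above 0, beside a median of -0.05 over all genes, 42.6% of all genes above 0 and 51.8% of those of at least 100 TPM. Chac1 was the 1 gene of the 31 to be called, 1.83-fold higher with FGF18 than with TGFβ1 (log2 ratio 0.83, percentile 97.9), where 4.18% of all genes were called higher, 6.14% lower and 10.3% in either direction. At the smaller log2 ratio of 0.32, 5 of the 31 genes passed, where 11.5% of all genes were higher, 20.0% lower and 31.4% either. They were Chac1, Asns (log2 ratio 0.42), Sdf2l1 (0.46) and Edem1 (0.34) on the FGF18 side, and Serpinh1 (-0.36) on the TGFβ1 side. Apart from Chac1, these differences are under 1.5-fold.

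Other genes of the pathways were described from lists. Of 18 amino acid synthesis and transport genes that ATF4 is known to drive, 17 reached the minimum level, and Cbs, at 2.44, 1.09 and 4.52 TPM, did not (log2 ratios -0.72 with FGF18 and 0.68 with TGFβ1). All 17 had a log2 ratio above 0 with FGF18, where 45.9% of all genes did, with a median of 0.39. Of them 5 were called higher, where 4.49% of all genes were, and 0 lower. The largest were Cth (cystathionine γ-lyase) at 9.23 TPM in untreated HSCs, 20.8 TPM after FGF18 and 14.04 TPM after TGFβ1 (log2 ratio with FGF18 1.09), Slc7a5 (a transporter of large neutral amino acids) at 26.8, 48.4 and 32.4 TPM (0.83), and Psat1 (an enzyme of serine synthesis) at 59.96, 101 and 67.3 TPM (0.74). With TGFβ1 the median of the same 17 was 0.15, with 13 above 0, where 51.5% of all genes were, and 0 called. Against TGFβ1, FGF18 gave a median of 0.39, beside -0.05 over all genes. Of the 17, 2 were called higher, where 4.18% of all genes were called higher and 6.14% lower. These were Shmt2 (0.65) and Phgdh (0.61), both enzymes of serine and glycine metabolism. Asns is the gene of the ATF4-CHOP set that shares their function. The 12 cytosolic aminoacyl-tRNA synthetases found load amino acids onto tRNA and include known ATF4 targets. All 12 were above 0 with FGF18, where 45.9% of all genes were, with a median of 0.27 and 0 called. With TGFβ1, 5 were above 0, where 51.5% of all genes were, with a median of -0.02. For 11 further ATF4 stress genes, the medians were 0.20 with FGF18 and 0.19 with TGFβ1. With FGF18, 2 were called higher, Bbc3 (0.72) and Ddit4 (0.65), where 4.49% of all genes were. With TGFβ1, 1 was called higher, where 6.12% of all genes were. It was Ddit4, an inhibitor of mTORC1 signalling, at 4.34, 7.38 and 21.4 TPM (2.07). Ddit4 was under 10 TPM in untreated and FGF18-treated HSCs and reached the minimum mean only through its TGFβ1 level. Cth and Bbc3 (8.86, 15.2 and 13.5 TPM) were under 10 TPM in untreated HSCs and reached that minimum through their stimulated levels. The calls of these genes therefore depend on the groups in which they are high.

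Further ER folding enzymes, outside the 32 genes, were called mainly with TGFβ1. Of 28 such genes, 6 were called higher with TGFβ1 and 0 lower, where 6.12% of all genes were called higher and 5.48% lower, with a median log2 ratio of 0.15 and 20 above 0. These were Fkbp10 (0.77), Txndc5 (0.73), Pdia5 (0.68), Fkbp11 (0.66), Fkbp14 (0.59) and Fkbp7 (0.59), where Fkbp genes encode peptidyl-prolyl isomerases, Fkbp10 among them a known partner of procollagen, and Pdia5 and Txndc5 encode disulfide isomerases. With FGF18 the median was 0.02, with 16 above 0 and 1 called, Fkbp11 (0.59), where 4.49% of all genes were called higher and 7.41% lower. That 1 call lies near the share of all genes and is no result about these enzymes. The difference between the stimuli in these counts was not tested. Against TGFβ1, FGF18 gave Fkbp7 (-0.84) and Fkbp14 (-0.76) as called lower, where 6.14% of all genes were. The 25 genes of the translocon, signal peptidase and oligosaccharyl transferase gave no call, with medians of 0.19 (19 above 0) with FGF18 and 0.22 (22 above 0) with TGFβ1. Of all genes, 45.9% were above 0 with FGF18 and 51.5% with TGFβ1. Among 18 other ERAD genes, the medians were 0.12 with FGF18 and 0.14 with TGFβ1. With TGFβ1, 2 were called higher, where 6.12% of all genes were, among them Ube2j2 (0.67), a ubiquitin-conjugating enzyme of the ER membrane. With FGF18, 1 was called higher, where 4.49% of all genes were.

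**Figure D4:**
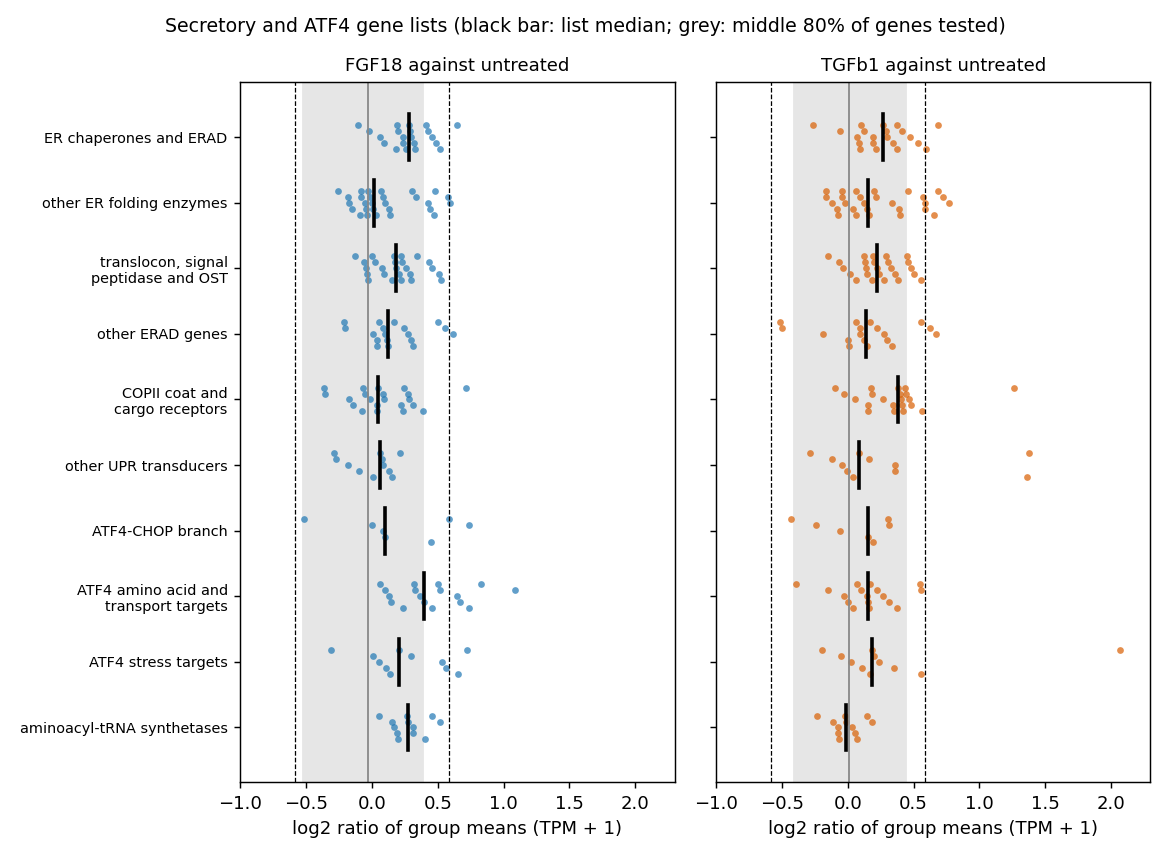
Log2 ratios (1 TPM added) of the genes of each list with FGF18 and with TGFβ1 against untreated HSCs, 1 point per gene, with a black bar at the median of the list, a grey line and band at the median and the middle 80% of all 9457 genes tested, and dashed lines at 1.5-fold. The list of ATF4 amino acid and transport genes has a median of 0.39 with FGF18 and 0.15 with TGFβ1, and the COPII list 0.04 and 0.38.

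Among other transducers, the CREB3 family, which like ATF6 is held in the ER membrane, did not move together. Of 11 other UPR transducers, 2 were called higher with TGFβ1, where 6.12% of all genes were, Creb3l1 (OASIS, a membrane-bound factor known to drive type I collagen in bone) at 15.6, 15.7 and 42.1 TPM, 2.70-fold higher, and Creb3l2 (known to drive COPII genes in cartilage) at 13.4, 14.2 and 35.9 TPM, 2.68-fold higher. With FGF18, Creb3l1 and Creb3l2 had log2 ratios of 0.01 and 0.07. Creb3 itself was at 103, 84.3 and 84.5 TPM, a log2 ratio of -0.29 with both stimuli. Creb3l3, at 8.95, 3.13 and 8.45 TPM, was under the minimum level and is not in these counts. Its log2 ratios were -1.27 with FGF18 and -0.08 with TGFβ1. None of the 11 was called with FGF18, and the medians were 0.06 with FGF18 and 0.09 with TGFβ1. A list of 21 genes held the COPII coat, which carries proteins from the ER to the Golgi, and cargo receptors, including a retrieval receptor. Of these genes, 19 were above 0 with TGFβ1, where 51.5% of all genes were, with a median of 0.38. With FGF18, 13 were above 0, where 45.9% of all genes were, with a median of 0.04. Kdelr3, a receptor that returns escaped chaperones to the ER, was called higher with TGFβ1 at 55.9, 49.4 and 135 TPM (log2 ratio 1.26), where 6.12% of all genes were. Mia2, which helps load large cargo, was called higher with FGF18 (0.71), where 4.49% of all genes were. Against TGFβ1, FGF18 gave Kdelr3 (-1.44) and Sec23a (-0.71), a subunit of the inner coat, as called lower, where 6.14% of all genes were.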

How the data were processed

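HSCs of 3 conditions were profiled by SMART-Seq HT PLUS libraries of amplified cDNA and paired-end sequencing. The authors mapped reads to mouse GRCm38 and compared conditions on the RaNA-seq platform. For the aligner, counter, annotation, versions and use of strand, details were not given in the sources used here. In the 2 deposited tables (31447 and 31691 rows) the authors give, as TPM, the mean level of each group, summing to 999986 and 999995 in the FGF18 table and to 999985 and 999992 in the TGFβ1 table. Other columns hold the authors' own comparison (log2 ratio, its standard error, statistic, p-value and adjusted p) and were not used. Values per library were not analysed here. The methods state an approximate number of reads per sample, but the depth that each library reached is unknown. Columns of unknown condition numbered 0.

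Ratios of mean TPM, with a pseudocount of 1 TPM, a minimum mean of 10 TPM and a call at 1.5-fold, were computed with Python 3.11.15, numpy 2.4.6, pandas 2.3.3 and matplotlib 3.10.9. Sequences and their positions are from RefSeq (GRCm38.p6), and the coordinates of genes are from GENCODE on GRCm38. A GENCODE gene can begin before its RefSeq start, so a printed stretch can lie within the gene coordinates, as in Hspa5 and, in large part, Asns. Symbols were matched as the tables give them, which found 12 of the 24 aminoacyl-tRNA synthetase symbols, older and newer forms both being searched. Full values are given for members called in any of the 3 comparisons, the 6 with the highest mean level, Serpinh1, Hspa5, Xbp1, Atf4, Ddit3 and members under the minimum, and for up to 3 called genes of each other list with the largest ratio, beside 3 collagen chains. Further genes were named after their values were seen. Members and lists were chosen with earlier results of these data known. Alternatives covered the pseudocount, the minimum level, the fold, centring, repeated symbols and the source of the untreated level. The values of a further gene in the list of other ERAD genes are not reported here, although it is counted there.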

Additional observations from a re-analysis of the deposited data

How the results depend on the processing

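With no values per library, leaving out a replicate, other normalizations and a test were not possible. No paired analysis was possible because the tables give only the mean of each group. All medians of the chaperone and ATF4-CHOP sets stayed within 0.1 on the log2 scale under every alternative run, and 0 directions of the called values turned. The counts of genes called depend on the fold, which was the largest source of movement. With FGF18, the 2 members called became 0 at 2-fold and 11 at a log2 ratio of 0.32, the 1 chaperone higher became 0 and 7, the 1 ATF4-CHOP gene higher became 0 and 3, and the ATF4-CHOP genes lower went from 0 to 1 at 0.32. With TGFβ1, the 2 called became 0 and 10, the 2 chaperones higher 0 and 8, and the ATF4-CHOP genes lower went from 0 to 1 at 0.32. For FGF18 against TGFβ1, the 1 called became 0 and 5, the 1 ATF4-CHOP gene higher 0 and 2, and at 0.32 the chaperones went from 0 to 2 higher and from 0 to 1 lower. A minimum mean of 100 TPM removes Creld2 and Chac1 by construction and left 1 called with FGF18 (0 chaperones), 1 with TGFβ1 (1 chaperone) and 0 for FGF18 against TGFβ1 (0 ATF4-CHOP genes). A pseudocount of 0.1 TPM brought the ATF4-CHOP genes higher with FGF18 to 2, by adding Chac1. Centring on the genes of at least 100 TPM left 1 called with TGFβ1 (1 chaperone), since Serpinh1 came to 0.57. Of the 203 alternative values for sets and counts, 176 stayed the same and 27 moved as given.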

Other observations

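Beyond the listed genes, the letters of the ERSE lay in the promoters of 5 further genes of the background, Adcy3, Alg12, Hnrnpa3, Pan2 and Xlr3a, named after their values were seen. Their median log2 ratio was 0.18 with FGF18 and 0.18 with TGFβ1. Alg12, a mannosyltransferase that builds the sugar chain attached to new glycoproteins in the ER, was at 8.65 TPM in untreated HSCs, 12.5 TPM after FGF18 and 15.9 TPM after TGFβ1, with log2 ratios of 0.48 and 0.81. Its untreated level was under 10 TPM, so it reached the minimum mean through its stimulated levels. On GRCm38 Alg12 lies at chr15:88805244-88819318 on the minus strand, and its start is 328 bases from that of Creld2 on the plus strand. The ERSE of Creld2, at -126 to -108 bases from its start, lies between the 2 starts. By these coordinates the same letters lie within the 250 bases before both starts, so Creld2 and Alg12 are not 2 separate cases. Of the 13 background genes with an ERSE, 2 were called higher with TGFβ1, where 6.12% of all genes were. They were Creld2 and Alg12, which share these letters, so the 2 calls are not independent. With FGF18, 1 was called higher, Creld2, where 4.49% of all genes were. The 163 genes outside the member list with a CARE in their promoter had a median log2 ratio of -0.06 with FGF18 and -0.01 with TGFβ1. Over all genes tested the medians were -0.03 and 0.01. Whether any of these matches is a bound site was not tested.

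The 14 cytosolic heat shock genes, the chaperones of the cytosol, had a median log2 ratio of 0.01 with FGF18, 7 of them above 0, where 45.9% of all genes were. With TGFβ1 their median was 0.14, 11 of them above 0, where 51.5% of all genes were, and none was called with either. Their summed level was 5916 TPM in untreated HSCs, 6633 TPM after FGF18 and 6330 TPM after TGFβ1, close to that of the ER chaperones. Cryab, a small heat shock protein, was at 789, 1049 and 642 TPM and was called higher with FGF18 than with TGFβ1 (log2 ratio 0.71), where 4.18% of all genes were.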
